A study of Homo sapiens with 2 samples.

Results

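The DNA replication machinery was described in Hodgkin lymphoma (HL) cells after knock-down of PRAME, a cancer/testis antigen that represses retinoic acid signaling. It was taken as 47 named genes, of 19775 genes with at least 1 probe set that the array annotation gives to a single gene. The 47 were chosen by their known function, but with earlier results of these data known. All 47 genes were found on the array, with 85 probe sets in all. Each gene was represented by its probe set with the highest mean signal, and all 47 passed the filter on low signals (mean signal of at least 97.7) that kept 11794 genes in all.

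The PRAME knock-down cells were cells of the established HL cell line L-428 with the vector pcDNA6.2-GW/EmGFP-miR-PRAME, which expresses an artificial microRNA against PRAME together with the fluorescent protein EmGFP. The control cells were L-428 cells with the vector pcDNA6.2-GW/EmGFP-miR-neg. According to the methods the knock-down vector was brought in by transfection and stable transfectants were selected with blasticidin, and it is not given in the sources used here whether these were single clones. No other drug is named for either sample. There was 1 array for each condition, so that no test, p-value or SD between cultures could be given for any gene, and signals are linear MAS5 intensities. Differences are given as log2 ratios, the knock-down signal divided by the control signal, so that values below 0 mean a lower signal in the knock-down cells. Signals depend on the probes and were not compared between genes. The general description of the series names another cell line (L-540) and another type of array, whereas the sample labels, the methods and the 54675 probe sets fit L-428 cells and the HG_U133PLUS2.0 array.

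Eukaryotic replication starts at origins that are bound by the origin recognition complex. In G1 phase CDC6 and CDT1 load rings of MCM2 to MCM7 onto the DNA, and in S phase the kinases CDC7-DBF4 and CDK2 turn these rings into active helicases by recruiting CDC45 and the GINS complex. DNA polymerase alpha with primase then starts each strand, RFC loads the sliding clamp PCNA, the polymerases delta and epsilon extend the strands, and FEN1 and LIG1 join the Okazaki fragments. Many of these genes are known targets of the E2F transcription factors and are expressed in proliferating cells, as HL cell lines are.

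The promoters show a sequence feature which the choice of the genes did not use. RefSeq promoter windows (GRCh38.p14, 250 bases before to 50 bases after an annotated transcription start) were found for 41 of the 47 genes. The E2F motif was searched as TTTCCCGC, TTTCGCGC, TTTGCCGC or TTTGGCGC on both strands. It was present in at least 1 window of 20 of the 41 replication genes (48.8%), against 642 of the 9602 measured genes with a window (6.69%) and 3.31% of all 35116 windows. The CCAAT box (CCAAT on both strands) was present in 25 of the 41 genes (61.0%), against 43.6% of the measured genes. A match is a description of the letters and not a measured binding site. The following windows are shown in full because they belong to the gene with the highest log2 ratio (ORC6), to the genes with the highest and lowest log2 ratio among those with an E2F motif (CDC7 and GINS1) and to the gene with the most motif matches (MCM6). They are written from 5′ to 3′ on the strand of the gene, and capitals mark E2F motifs.
ORC6 (chr16:46689409-46689708, plus strand): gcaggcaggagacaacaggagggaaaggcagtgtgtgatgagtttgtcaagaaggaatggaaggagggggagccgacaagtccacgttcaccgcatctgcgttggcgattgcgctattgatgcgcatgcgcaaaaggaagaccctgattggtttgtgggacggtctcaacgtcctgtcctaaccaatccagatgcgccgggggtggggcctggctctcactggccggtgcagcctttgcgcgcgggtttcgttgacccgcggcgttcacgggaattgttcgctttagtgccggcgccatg
CDC7 (chr1:91500862-91501161, plus strand): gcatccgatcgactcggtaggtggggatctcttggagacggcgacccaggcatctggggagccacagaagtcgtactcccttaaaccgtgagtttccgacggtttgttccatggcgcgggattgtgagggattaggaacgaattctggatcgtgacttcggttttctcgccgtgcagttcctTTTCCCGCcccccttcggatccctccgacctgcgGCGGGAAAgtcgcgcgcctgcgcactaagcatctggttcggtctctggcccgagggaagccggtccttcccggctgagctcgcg
GINS1 (chr20:25407423-25407722, plus strand): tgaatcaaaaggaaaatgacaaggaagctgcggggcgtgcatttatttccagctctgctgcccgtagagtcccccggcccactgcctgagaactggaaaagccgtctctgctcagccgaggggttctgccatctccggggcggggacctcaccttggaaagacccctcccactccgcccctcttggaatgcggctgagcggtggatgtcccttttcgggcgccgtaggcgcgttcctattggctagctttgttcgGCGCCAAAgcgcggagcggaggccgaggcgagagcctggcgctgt
MCM6 (chr2:135876394-135876693, minus strand): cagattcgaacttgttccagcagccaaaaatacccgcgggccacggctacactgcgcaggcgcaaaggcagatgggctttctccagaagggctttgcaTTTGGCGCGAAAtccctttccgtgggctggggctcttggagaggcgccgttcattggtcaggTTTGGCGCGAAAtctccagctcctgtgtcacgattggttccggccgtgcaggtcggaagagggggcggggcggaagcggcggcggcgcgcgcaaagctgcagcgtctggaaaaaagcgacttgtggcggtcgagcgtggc

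The ORC6 window held no E2F motif and 2 CCAAT boxes. CDC7 held 2 E2F motifs, which began 68 and 34 bases before the start of transcription, and its other RefSeq window held none. In GINS1 the single motif began after the start. In MCM6 the capitals cover a pair of motif pairs on opposite strands that overlap in their GCGC part, so that 4 matches were counted. The clamp loader gene RFC3 and the polymerase genes POLA2, POLE and POLE2 also had a motif and are not shown. Motifs of further genes are shown with 11 bases on each side, for CDC6, PCNA, POLA1 and LIG1 as examples.
CDC6 (chr17:40287875-40287904, plus strand): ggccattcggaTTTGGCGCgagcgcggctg
PCNA (chr20:5126663-5126692, minus strand): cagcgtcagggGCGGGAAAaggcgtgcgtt
POLA1 (chrX:24693770-24693799, plus strand): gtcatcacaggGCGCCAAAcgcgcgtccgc
LIG1 (chr19:48170440-48170469, minus strand): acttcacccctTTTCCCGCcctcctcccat

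In total, 27 motif matches were counted in the windows of the 20 genes (overlapping matches counted separately). Of these, 22 began before the start of transcription, and 16 of them within 100 bases of it. The log2 ratios (knock-down divided by control) of the genes with a motif were found on both sides of 0. Their median was -0.01, with 11 of 20 genes below 0 and a range from -0.48 to 0.49. The 21 genes without the motif had a median of -0.15, with 16 genes below 0 and a range from -0.48 to 0.71. Among all measured genes the medians were -0.04 with and -0.01 without the motif. A log2 ratio below 0 was found for 51.0% of all measured genes. The share was 57.7% for the measured genes in the signal range of the replication genes. These shares were not split by the motif. Whether replication genes with and without the motif differ in the share below 0 was not tested. The 6 genes without a window were MCM4, MCM5, GINS4, POLD3, RPA2 and RPA3.

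**Figure D1:**
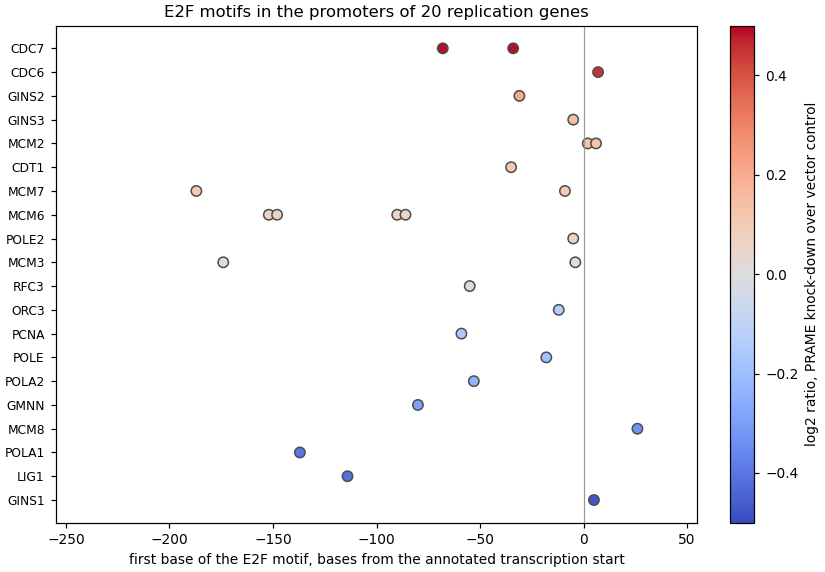
Position of each E2F motif match in the promoters of 20 replication genes (x axis, bases from the annotated transcription start, first base of the match), with 1 row per gene ordered by its log2 ratio and colored by it (1 array per condition). The rows run from CDC7 (0.49) at the top to GINS1 (-0.48) at the bottom, and motifs near the start of transcription are found in genes on both sides of 0.

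PRAME itself had a signal of 1251 in the knock-down cells and 2115 in the control cells. This is a log2 ratio of -0.80 after centering on the median of all kept probe sets (0.045 was subtracted from all log2 ratios). Both arrays had been scaled to one level, with a mean without the highest and lowest 2% of signals of 500.1 on each. All 8 markers of Hodgkin and Reed-Sternberg cells were above the filter, with signals of 1667 in the knock-down cells and 1893 in the control cells for CD30 (TNFRSF8) and a log2 ratio of -0.63 for FUT4, which synthesizes CD15 and was the only one at least 1.5-fold different. Of the B cell markers, which HL cells mostly lack, MS4A1 and CD22 were just above the filter and CD79B below it. The T cell and myeloid markers CD3E, CD3D, CD14 and LYZ and the cytotoxic cell marker NKG7 were below the filter. The erythroid gene HBB was above it with 3 probe sets. Its signal was 170 in the knock-down cells and 101 in the control cells (log2 ratio 0.71, at least 1.5-fold higher). The signal of the 3′ probe set divided by that of the 5′ probe set was 1.04 in the knock-down cells and 0.948 in the control cells for GAPDH, and 1.17 in the knock-down cells and 1.14 in the control cells for ACTB. Where a gene had a lower signal, fewer cells in S phase and less RNA of the gene in each cell cannot be told apart from bulk RNA. With 1 array per condition, a difference between cultures cannot be told apart from either.

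Most genes of the replication machinery differed by less than 1.5-fold between the conditions, as did most measured genes. Of the 47 genes, 45 had a log2 ratio between -0.5 and 0.5. The share of all measured genes within these limits was not counted. The lower and upper quartiles of the log2 ratio were -0.28 and 0.10 for the 47 genes. They were -0.26 and 0.14 for the 8075 measured genes in the signal range of the 47 genes. Small differences are therefore not particular to the machinery. Only RPA2 was at least 1.5-fold lower in the knock-down cells (1 of 47 genes, against 5.42% of the 11794 measured genes), and only ORC6 was at least 1.5-fold higher (1 of 47, against 7.54%). No gene of the machinery was 2-fold lower or higher, as were 0.729% and 1.73% of all measured genes. A log2 ratio below 0 was found for 31 of the 47 genes (27 without centering, after quantile normalization and after loess subtraction), against 51.0% of all measured genes, and the median log2 ratio was -0.14, against -0.01.

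All replication genes had a mean signal of at least 381, the value of ORC1, and log2 ratios on these arrays depended on the signal. The 8075 measured genes in this signal range had a median of -0.06 and 57.7% were below 0. The share that was lower by 1.5-fold or more was 5.13%, and 2.80% were higher by this factor. Their SD across genes was 0.33, and that of the replication genes was 0.27. When the trend with signal was subtracted (loess), the median of the replication genes was -0.05 and that of the genes in their signal range -0.00044. For single genes, the SD between different probe sets of one replication gene was 0.28. This is an error between probes and gives no information on repeated cultures.

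**Figure D2:**
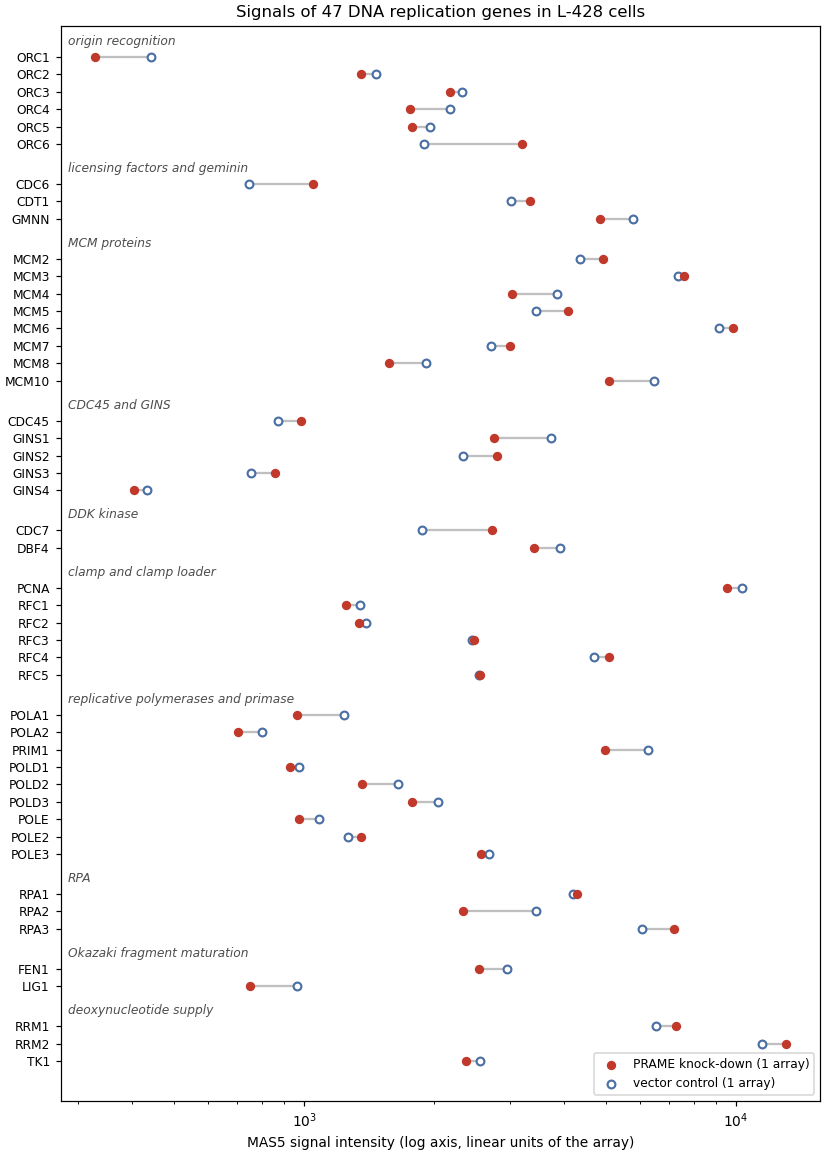
MAS5 signals (log axis) of the 47 replication genes in PRAME knock-down cells (red points) and vector control cells (open blue points), 1 array per condition, by function. Most pairs lie close together, whereas ORC6 (3199 in knock-down and 1896 in control cells) and RPA2 (2332 in knock-down and 3435 in control cells) are the only genes more than 1.5-fold apart after centering.

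The origin recognition complex contained the only gene that was at least 1.5-fold higher. ORC6 had a signal of 3199 in the knock-down cells and 1896 in the control cells, a log2 ratio of 0.71 (1.64-fold higher). The other 5 subunits, which form the ring-shaped core with ATP-binding proteins, all had log2 ratios below 0, with a median of -0.18. The lowest was that of ORC1, the subunit whose amount varies in the cell cycle, with a signal of 328 in the knock-down cells and 443 in the control cells (log2 ratio -0.48). The signal of ORC4 was 1756 in the knock-down cells and 2179 in the control cells (-0.36), but its second probe set was at 0.23. ORC2 (-0.16, and 0.08 in its second probe set), ORC3 (-0.14) and ORC5 (-0.18) were closer to 0. ORC6 was measured by a single probe set of the _x_at type, which can bind related sequences, so that its difference was not seen in a second probe set.

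The licensing factors went in both directions. CDC6, the ATPase that brings MCM rings to the origin, had a signal of 1050 in the knock-down cells and 745 in the control cells (log2 ratio 0.45), but its second probe set had 787 in the knock-down cells and 842 in the control cells (-0.14). CDT1, the partner of CDC6 in loading, had a signal of 3337 in the knock-down cells and 3008 in the control cells (0.10), with 0.26 in its second probe set. Geminin (GMNN), which binds CDT1 and blocks a further round of licensing, had a signal of 4853 in the knock-down cells and 5779 in the control cells (-0.30). None of these genes was 1.5-fold different.

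The 6 subunits of the MCM helicase had log2 ratios between -0.39 (MCM4) and 0.20 (MCM5), and none was 1.5-fold different in its probe set with the highest signal. MCM3 was nearly the same in both conditions, with a signal of 7581 in the knock-down cells and 7359 in the control cells. MCM6 had a signal of 9837 in the knock-down cells and 9158 in the control cells (log2 ratio 0.06), but its second probe set, with lower signals, was 1.64-fold lower (227 in the knock-down cells and 361 in the control cells, -0.71). The signal of MCM2 was 4917 in the knock-down cells and 4365 in the control cells (0.13). MCM5 had 4079 in the knock-down cells and 3437 in the control cells (0.20), and MCM7 had 2999 in the knock-down cells and 2705 in the control cells (0.10). The second probe sets of MCM5 (-0.06) and MCM7 (-0.35) had the opposite sign, and MCM2 and MCM3 had a single probe set. MCM4 was the subunit with the lowest log2 ratio, and all its kept probe sets were below 0. Its signal was 3032 in the knock-down cells and 3849 in the control cells (-0.39), and its 4 kept probe sets ranged from -0.66 to -0.12. MCM10, which stabilizes the helicase at the fork, was also lower in all 3 probe sets (-0.48 to -0.19), with a signal of 5075 in the knock-down cells and 6471 in the control cells. MCM8, a helicase with a role in repair by recombination, had log2 ratios of -0.33 and 0.44 in its 2 probe sets.

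CDC45 and the GINS complex complete the helicase, and none of their genes was 1.5-fold different in its probe set with the highest signal. The log2 ratio furthest from 0 among these probe sets was that of GINS1. GINS1 had a signal of 2756 in the knock-down cells and 3722 in the control cells (log2 ratio -0.48). The signals of GINS2 (2794 in the knock-down cells and 2338 in the control cells, 0.21), GINS3 (857 in the knock-down cells and 753 in the control cells, 0.14) and CDC45 (982 in the knock-down cells and 871 in the control cells, 0.13) were slightly higher in the knock-down cells, but a GINS2 probe set with low signals was at -0.24. GINS4 had a log2 ratio of -0.14 in its probe set with the highest signal and between 0.03 and 0.73 in 3 probe sets with lower signals. The kinase CDC7, which phosphorylates the MCM ring, had the second highest log2 ratio of all 47 genes. Its signal was 2720 in the knock-down cells and 1877 in the control cells (0.49), whereas its activator DBF4 had 3400 in the knock-down cells and 3911 in the control cells (-0.25). CDC7, DBF4 and GINS1 were measured by a single probe set each.

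Of the 9 genes for replicative polymerases and primase, 8 had log2 ratios below 0, against 57.7% of the measured genes in the signal range of the replication genes. The count was also 8 without centering, after quantile normalization and after loess subtraction, 7 with the median of all kept probe sets per gene, and 6 of 8 without probe sets of the endings _s_at, _x_at and _a_at. The median of the 9 genes was -0.23. The lowest value was that of POLA1, the catalytic subunit of DNA polymerase alpha, with a signal of 963 in the knock-down cells and 1237 in the control cells (-0.41). The primase subunit PRIM1 had a signal of 4978 in the knock-down cells and 6263 in the control cells (-0.38), and POLA2 had 704 in the knock-down cells and 801 in the control cells (-0.23), with a second probe set at 0.27. Of polymerase delta, the catalytic subunit POLD1 had a log2 ratio of -0.11, POLD2 of -0.32 and POLD3 of -0.24. A second POLD3 probe set was at -1.10, but its signals of 71.7 in the knock-down cells and 148 in the control cells were near the filter. Of polymerase epsilon, POLE (-0.19) and POLE3 (-0.11) were slightly lower and POLE2 (0.05) was not. Further subunits, counted below with the other replication factors, were PRIM2 at -0.19, POLD4 at -0.56 and POLE4 at 0.25.

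None of the genes of the clamp and its loader was 1.5-fold different. PCNA had a signal of 9540 in the knock-down cells and 10323 in the control cells (log2 ratio -0.16). The small loader subunits RFC2 to RFC5 lay between -0.10 and 0.07, and the large subunit RFC1 was at -0.16, with -0.45 in its second probe set. Of these 6 genes 5 had values below 0, but only 3 without centering and after quantile normalization or loess subtraction. The other RFC3 and RFC5 probe sets were at -0.19 to -0.38 and at -0.34 and -0.36, further from 0 than the probe sets with the highest signals.

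Replication protein A, the trimer that covers single-stranded DNA, showed different log2 ratios for its 3 subunits. RPA2, the subunit which is phosphorylated after replication stress, had a signal of 2332 in the knock-down cells and 3435 in the control cells (log2 ratio -0.60, 1.52-fold lower). RPA1, the largest subunit, had nearly equal signals of 4290 in the knock-down cells and 4189 in the control cells (-0.01). RPA3, the smallest, had 7188 in the knock-down cells and 6054 in the control cells (0.20). RPA2 was measured by a single probe set. Without centering its log2 ratio was -0.56, after quantile normalization and after loess subtraction it was -0.52, and so it was below 1.5-fold in each of these settings.

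FEN1, the flap nuclease of Okazaki fragments, was slightly lower in both probe sets (-0.26 and -0.31), with a signal of 2539 in the knock-down cells and 2951 in the control cells. DNA ligase 1 (LIG1) had a signal of 748 in the knock-down cells and 964 in the control cells (-0.41). Of the genes for the supply of deoxynucleotides, RRM2, the regulated subunit of ribonucleotide reductase, had a signal of 13054 in the knock-down cells and 11518 in the control cells (0.14). Its partner RRM1 was at 0.10 and -0.16 in its 2 probe sets, and thymidine kinase TK1 at -0.15 and -0.33.

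**Figure D3:**
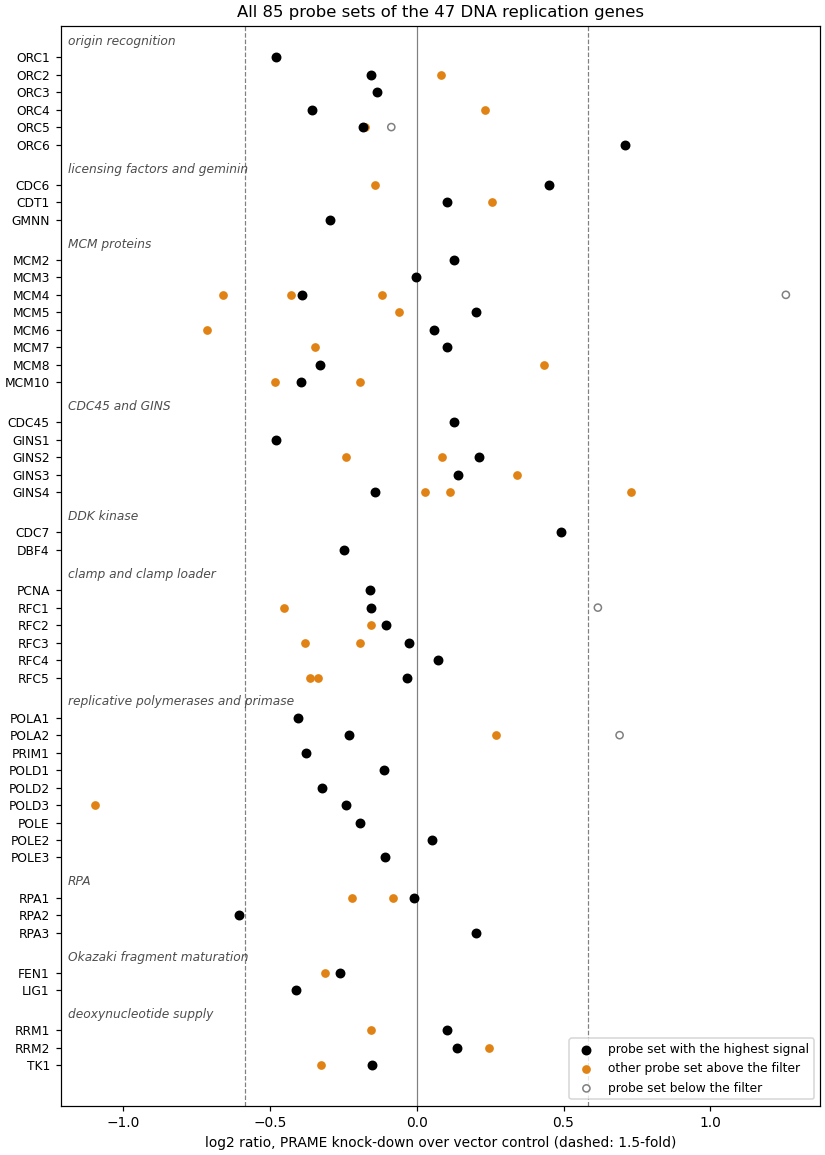
Log2 ratio (knock-down divided by control) for all 85 probe sets of the 47 replication genes, 1 array per condition, where black points are the probe sets with the highest signal, orange points other probe sets above the filter, open points the 4 probe sets below it, and dashed lines stand at 1.5-fold. Of the 25 genes with several kept probe sets, 11 have points on both sides of 0.

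Of the 85 probe sets, 81 were above the filter, and 25 genes had at least 2 of them. In 11 of these 25 genes all kept probe sets had log2 ratios below 0, in 3 all were above 0 and in 11 they were on both sides. This split was not counted for all 5840 genes with several kept probe sets. By the probe set with the highest signal alone, 57.7% of the measured genes in the signal range of the replication genes were below 0. That share is another measure than the split, and whether the split is particular to the machinery was not tested. The 3 genes with all probe sets above 0 were CDT1, GINS3 and RRM2. No gene with several probe sets was 1.5-fold different in all of them. ORC6 and RPA2 are among the 22 genes with only 1 kept probe set, so neither difference could be compared between probe sets.

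The position of the genes in the genome was also compared, since genes of some chromosomes were shifted as a group on these arrays. This grouping was looked at after the values had been seen. The 47 genes lie on 19 chromosomes. On chromosome 20 (327 genes, median -0.17) all 3 replication genes were below 0, with -0.16 for PCNA, -0.33 for MCM8 and -0.48 for GINS1. On chromosome 16 (532 genes, median 0.08) all 4 replication genes were above 0, with 0.10 for CDT1, 0.14 for GINS3, 0.21 for GINS2 and 0.71 for ORC6. Relative to the median of its chromosome, ORC6 was at 0.63, RPA2 at -0.68, CDC7 at 0.41 and GINS1 at -0.31. Other chromosomes varied. All 3 replication genes of chromosome 6 (651 genes, median -0.07) were below 0 like its median. The 2 replication genes of chromosome 3 (median 0.07) and the 2 of chromosome 22 (median 0.07) were above 0. Unlike the median of their chromosome, all 3 replication genes of chromosome 12 (650 genes, median 0.08) were below 0. On chromosome 1 (1167 genes, median 0.08) 2 of 3 were below 0. Signs were mixed on chromosome 7 (median -0.04), with 4 of 6 below 0, and on chromosome 11 (median -0.02), with 3 of 4. They were also mixed on chromosome 2 (median 0.01), with 2 of 4 below 0, and on chromosome 17 (median -0.03), with 2 of 3. With the median of the chromosome subtracted from each gene, the median of the 47 genes was -0.09 and 29 were below 0. The part of such shifts of whole chromosomes in the values of these genes was not tested.

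**Figure D4:**
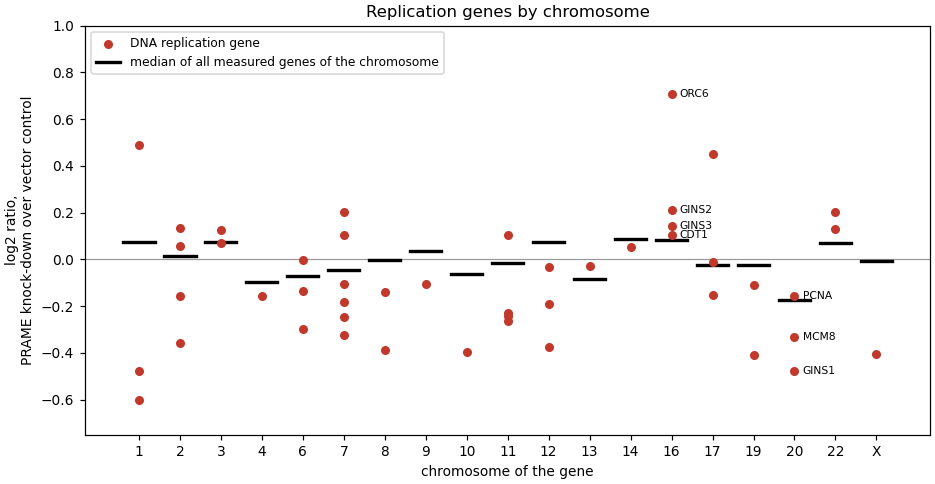
Log2 ratios of the 47 replication genes (red points) by chromosome, with the median of all measured genes of each chromosome as a black bar, 1 array per condition. The 4 genes of chromosome 16 lie above 0 and the 3 genes of chromosome 20 below 0, where the medians of all genes are 0.08 and -0.17.

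Related genes were described by lists of the same kind. Of 24 other replication factors, 19 had log2 ratios below 0 (median -0.09), and DBF4B, a second activator of CDC7, was at least 1.5-fold lower, with a signal of 158 in the knock-down cells and 315 in the control cells (-1.04). The next in size were MCM9 (-0.58), the polymerase delta subunit POLD4 (-0.56) and DSCC1 of an alternative clamp loader (0.48). Of 11 measured enzymes of nucleotide supply, DCK and SHMT1 were at least 1.5-fold lower (2 of 11, against 5.42% of all measured genes). None was 1.5-fold higher. Deoxycytidine kinase DCK had a signal of 3351 in the knock-down cells and 4948 in the control cells (-0.61). SHMT1 was at -0.64 with a signal of only 88.9 in the knock-down cells. TK2 was at 0.56 and SAMHD1, which degrades deoxynucleotides, at -0.31. Thymidylate synthase (TYMS), on chromosome 18, was at 0.03. None of 11 genes for chromatin assembly behind the fork was 1.5-fold different, against 5.42% lower and 7.54% higher among all measured genes. The median of the 11 genes was -0.09, with the chaperone subunit CHAF1A at -0.48, DNMT1 at -0.38, SSRP1 at -0.33 and the histone mRNA binding protein SLBP at -0.22.

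Of 27 measured genes that control the entry into S phase, E2F1 and the CDK inhibitor CDKN1A, which encodes p21, were at least 1.5-fold lower (2 of 27, against 5.42% of all measured genes) and none was 1.5-fold higher. E2F1 had a signal of 674 in the knock-down cells and 998 in the control cells (log2 ratio -0.61), and lies on chromosome 20. CDKN1A had a signal of 205 in the knock-down cells and 333 in the control cells (-0.74). SKP2, a ubiquitin ligase subunit that marks the CDK inhibitor p27 for degradation, was at 0.56 and E2F3 at -0.37. The median of these 27 genes was -0.02. Of 22 mitotic genes, 15 were below 0 (median -0.10), against 51.0% of all measured genes and 57.7% of those in the signal range of the replication genes. None of the 22 was 1.5-fold different, against 5.42% lower and 7.54% higher among all measured genes. BUB1 was at -0.40, CENPA at 0.37, TTK at -0.34 and KIF20A at -0.33. These lists were not compared with each other by a test.

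**Figure D5:**
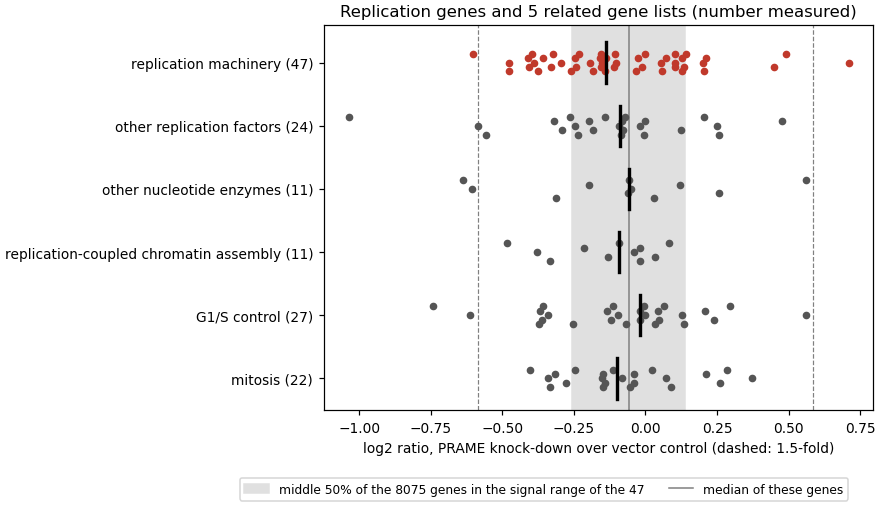
Log2 ratio (knock-down divided by control) for the 47 replication genes (red points) and 5 related lists (grey points, measured genes only), 1 array per condition, where black bars are medians, the grey area is the middle 50% of the 8075 genes in the signal range of the 47 genes and dashed lines stand at 1.5-fold. The medians lie between -0.14 for the replication machinery and -0.02 for the genes of G1/S control.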

How the data were processed

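RNA of L-428 cells, transfected against PRAME or with the control vector, was hybridized to 1 HG_U133PLUS2.0 array each. The authors analyzed the arrays with Affymetrix Expression Console 1.1, and the deposited values are MAS5 signal intensities on a linear scale for 54675 probe sets. In MAS5 the background is subtracted and each probe set is summarized on its own array, so low signals are uncertain. RMA values were not used here.

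The 62 control probe sets were left out. Signals were log2 transformed with no offset, the 27307 probe sets whose mean log2 signal reached the median were kept, and log2 ratios (knock-down divided by control) were centered on their median. Names came from the platform annotation (41097 probe sets with 1 gene symbol, 1801 with several, which were not used). They were updated through the RefSeq gene table of GRCh38.p14, in which 41043 of these probe sets were found. A gene was represented by its probe set with the highest mean log2 signal. With 1 array per condition no test was performed, and thresholds of 1.5-fold and 2-fold are descriptions. The number of arrays limits the precision. Promoter windows came from RefSeq (GRCh38.p14).

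The 47 genes, the other lists and the thresholds were chosen with earlier results of these data known. All 47 genes could be named, and of the other lists the 4 genes with the largest log2 ratios. TYMS, PRIM2 and POLE4 were named after their values were seen, and cell type markers for the check of the label. The 8 alternatives were quantile normalization, no centering, a loess curve against signal subtracted (span 0.4), an offset of 64, a stricter filter (75th percentile), no filter, the median of the kept probe sets per gene, and leaving out the endings _s_at, _x_at and _a_at. The scripts were tested on simulated data. Software was matplotlib 3.10.9, statsmodels 0.14.6, pandas 2.3.3, numpy 2.4.6 and Python 3.11.15.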

Additional observations from a re-analysis of the deposited data

How the results depend on the processing

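Results were computed under 8 alternatives. ORC6 was the only replication gene at least 1.5-fold higher in 7 of them. Without the endings _s_at, _x_at and _a_at it had no probe set, only 34 genes were measured, and the count was 0. The count of genes at least 1.5-fold lower was 0 without centering, after quantile normalization, after loess subtraction and with the filter at the 75th percentile (45 genes measured), since RPA2 was then between -0.56 and -0.52 on the log2 scale. It was 2 with the median over probe sets (POLD3 and RPA2) and without the named endings (MCM4 and RPA2). The median log2 ratio of the replication genes was between -0.23 (no filter) and -0.05 (quantile normalization), and below 0 in all alternatives, as was its difference from the median of all measured genes (-0.22 to -0.05). The number of genes below 0 was lowest as a share with the filter at the 75th percentile (25 of 45), then 27 of 47 without centering, after quantile normalization and after loess subtraction, and highest with no filter (34 of 47). In size RPA2 (-0.70) was further from 0 than ORC6 (0.61) with no filter. Of 361 values of single genes under the alternatives, 6 moved by more than the SD of 0.33 between probe sets of a gene, and 30, of 15 genes, had another sign than in the report. For 32 genes the sign was the same in all alternatives. For CDC6 it depended on the probe set (0.45 or -0.14).

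With 1 array per condition, differences between cultures of the same kind are not known, and differences of the size found for most replication genes cannot be told apart from it.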
